A study of Mus musculus with 12 samples.

Results

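The effect of losing PKN2 on the matrix and adhesion genes of vehicle-treated pancreatic stellate cells (PSCs) was measured by comparing 3 PKN2 KO with 3 WT libraries, out of 12 libraries in the series. The gene set was every gene of a targeted panel with a normalised count of 10 or more in at least 3 of these 6 libraries, which left 228 of 420 genes. The normalised count is the number of reads on a gene divided by 1 factor for its library. Of the other genes, 105 had no read in the 6 libraries and 87 had reads but did not reach the filter.

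The cells were C57BL/6 mouse PSCs, isolated by density centrifugation from the pancreas of a single male mouse carrying PKN2 fl/fl and Rosa26CreERT2, a Cre recombinase expressed in all cells and switched on by tamoxifen, and were then immortalised with SV40 large T antigen. PKN2 KO PSCs had been given a brief pulse of 4-hydroxytamoxifen to delete the floxed gene, and whether the WT PSCs had a control pulse is not given in the sources used here. Both groups were grown on plastic in medium with serum and the vehicle of TGF-β1, an acidic citrate buffer with albumin, and the remaining 6 libraries came from the same cells given TGF-β1 at 5 ng/ml. RNA was taken after 72 h. The labels name the libraries of each group A, B and C and do not say what separates them. The methods give this 1 mouse and no other as the source of the PSCs. The p-values therefore measure the spread between these libraries and not between animals. The age of the mouse is not given in the sources used here.

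PKN2 is a serine/threonine kinase of the protein kinase N family with roles in the actin cytoskeleton and cell adhesion. PSCs are the resident fibroblasts of the exocrine pancreas. On stiff plastic they become contractile myofibroblasts, secrete fibrillar collagen and fibronectin, lay down basement membrane and release the proteases and protease inhibitors that set how long the matrix lasts. The comparison asks which of these genes differ after the loss of PKN2 in cells in 2D culture to which no TGF-β1 was added.

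Between 1074095 and 1473153 reads per library fell on the panel in vehicle. Library B of each group had the largest factor, 1.48 in WT and 1.42 in PKN2 KO against 0.847 to 1.01 in the others, and after division the lowest total. WT library B was the lowest of its group for 50.9% of the genes tested and PKN2 KO library B for 62.3%. The part of this in the results was not tested. The panel has no Pkn2 assay, and the deletion cannot be examined with it. The labelled cell type was checked on marker lists. Of 7 fibroblast markers 6 were tested, their summed normalised count lay between 155705 and 300963 per library, and Lum, a defining small proteoglycan of many fibroblasts, was at 0 in 3 libraries and at most 4.93 in the rest. No endothelial and no epithelial marker of 7 each reached the filter, with sums of 10.6 to 24.0 and 11.8 to 44.5, and the endothelial cadherin Cdh5 was at 0 in all 6 libraries. Itgb2 was the only leukocyte marker of 7 that was tested (sums 16.3 to 31.8). L1cam was the only glial or neural marker of 7 that was tested (sums 715 to 1766). As these are bulk libraries, a smaller number of cells expressing a gene and less RNA per cell cannot be told apart.

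With the authors' factors, more genes were higher than lower in PKN2 KO PSCs. With limma across the panel, 32 of the 228 genes (14.0%) had an adjusted p under 0.05, of which 25 (11.0% of genes tested) were higher and 7 (3.07%) lower in PKN2 KO. Serpine2, Lama5, Fmod, Prelp and Col15a1 had the largest increases, and Cdh18, Col2a1, Adamts5 and Pcdh18 the largest decreases. A difference of at least 1 on the log2 scale was seen for 21 of the 32, 17 higher and 4 lower. The highest PKN2 KO library lay below the lowest WT library, or the reverse, for all 32 called genes and for 76 of the 228 tested (33.3%), 56 higher (24.6%) and 20 lower (8.77%).

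**Figure D1:**
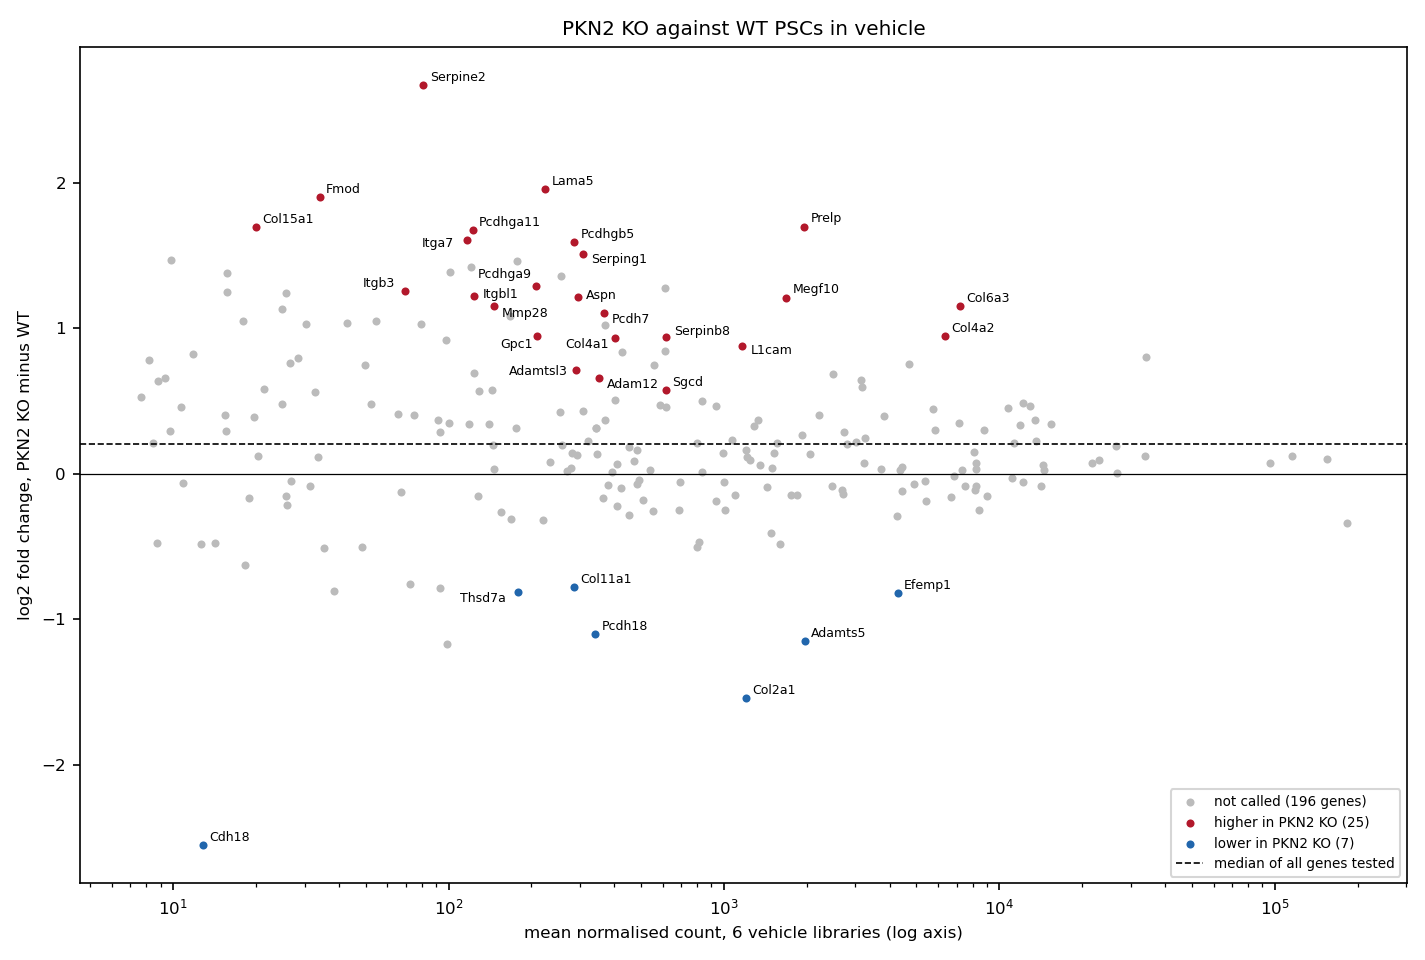
Each point is 1 of the 228 genes tested, with its mean normalised count over the 6 vehicle libraries on the x axis (log scale) and its log2 fold change, PKN2 KO minus WT, on the y axis. Called genes are named in red (25 higher) or blue (7 lower); the dashed line is the median of all genes tested, 0.21, and the genes with the largest changes in either direction have low or intermediate counts.

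The share of higher genes depended on the scaling. The median log2 fold change of all genes tested was 0.21 with the authors' factors, with 159 genes above 0 and 69 below. It was 0.14 when libraries were scaled to their total count, 0.02 under TMM and -0.02 under median-of-ratios factors from all genes. Under these scalings, in that order, 33 higher and 10 lower, 21 and 14, and 19 and 21 genes were called. All 7 lower genes and 19 of the 25 higher ones were called under each of these scalings, the exceptions being Adam12, Itgb3, Pcdhga9, Pcdhga11, Pcdhgb5 and Sgcd. Each gene group below is therefore read against the median of 0.21. Its count of calls is read against the shares over all genes tested, 11.0% higher and 3.07% lower. The number of calls also rested on single libraries. It was 17 without WT library C, 17 without PKN2 KO library A and 18 without PKN2 KO library C, and between 28 and 35 without any of the other 3. In every one of these 6 fits 16 genes were called, namely Serpine2, Lama5, Prelp, Itga7, Serping1, Pcdhga9, Aspn, Megf10, Pcdh7, Gpc1, Serpinb8 and Col4a1 among those higher, and Cdh18, Col2a1, Pcdh18 and Col11a1 among those lower. The other 16 missed the threshold in at least 1 fit, with limma adjusted p from 0.050 to 0.21.

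**Figure D2:**
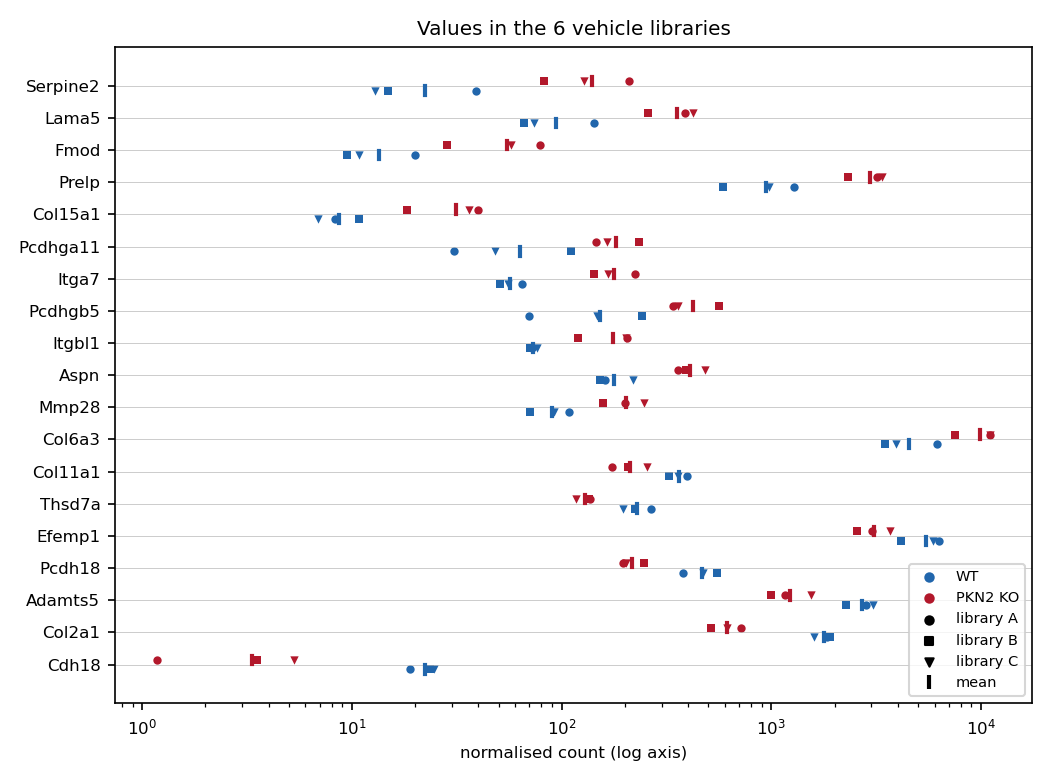
Normalised counts (x axis, log scale) in the 3 WT (blue) and 3 PKN2 KO (red) vehicle libraries for the 7 genes called lower and for 12 of the 25 called higher; symbols mark libraries A, B and C and the vertical bars the group means. The groups do not overlap for any gene shown, for example 12.8 to 38.9 in WT against 82.7 to 209 in PKN2 KO for Serpine2.

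Fibrillar collagens form the load-bearing fibres of connective tissue. Of 10 tested none was higher and 2 were lower, beside 11.0% higher and 3.07% lower over all genes tested. The 2 belong to the fibre type of cartilage. Col2a1, its main chain (ENSMUSG00000022483, GRCm38 chromosome 15, 97975602 to 98004695), had normalised counts of 1843, 1902 and 1602 in WT libraries A, B and C and 714, 517 and 614 in PKN2 KO. The lowest WT library stood at more than double the highest PKN2 KO library. The log2 fold change was -1.54 (95% interval -1.90 to -1.18, limma adjusted p = 6.95e-05), the smallest p among the genes tested. Col11a1, which nucleates these fibres, had 398, 326 and 359.9 in WT and 173, 207 and 255 in PKN2 KO. It fell by 0.78 on the log2 scale (-1.14 to -0.41, limma adjusted p = 0.00694), and its highest PKN2 KO library, C, lay nearer to WT than the other two.

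The collagens that make up most of the matrix of a fibroblast were not called. Col1a1, the main chain of collagen I, was the most counted of the list, with 149555 ± 47536 (SD, n = 3) in WT and 159699 ± 44837 in PKN2 KO and a log2 fold change of 0.10 (-0.72 to 0.93). Its interval excludes a change of 1 on the log2 scale in either direction. The same held for 7 of the 8 fibrillar collagens that were not called, and the list median was -0.06, below that of all genes. The 10 enzymes and chaperones of collagen folding and cross-linking held no called gene, beside 14.0% of all genes tested. Their median was 0.11, and 10 intervals lay within 1. Pcolce, which enhances the trimming of procollagen, was the most counted of them at 0.19 (-0.38 to 0.76).

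Basement membrane genes encode the sheet that underlies epithelia and surrounds pericytes and muscle, built of laminin and collagen IV networks. Of 13 tested, 4 were called, all higher, 12 had a positive log2 fold change, and the median was 0.76. Over all genes tested 11.0% were higher, 69.7% positive, and the median was 0.21. Lama5, the laminin α5 chain (ENSMUSG00000015647, chromosome 2, 180176373 to 180225859), had 143, 66.2 and 73.9 in WT and 387, 257 and 421 in PKN2 KO. The log2 fold change was 1.96 (1.24 to 2.67, limma adjusted p = 0.00151). Col15a1, a basement membrane zone collagen, had 8.26, 10.8 and 6.90 in WT and 39.8, 18.4 and 36.0 in PKN2 KO, a log2 fold change of 1.69 (0.77 to 2.61, limma adjusted p = 0.0162). The groups were apart, on low counts. Its summed reads were 30 in WT and 94 in PKN2 KO. The ratio of 3.26, corrected for library factors, had a counting interval of 2.14 to 5.09, which covers counting error only. Without WT library C, PKN2 KO library A or PKN2 KO library C its adjusted p was 0.075 to 0.084. Nid1, the laminin-binding linker nidogen and the most counted of the list, had a log2 fold change of 0.21 (-0.41 to 0.84).

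Collagen IV is assembled from α1 and α2 chains whose genes lie head to head and share 1 start region, which is why the 2 promoters are shown. Col4a1 had 327, 242 and 258 in WT and 601, 436 and 549 in PKN2 KO. Col4a2 had 5205, 3636 and 4067 in WT and 9729, 6340 and 8981 in PKN2 KO. Both rose by nearly the same amount, Col4a1 by 0.94 (0.54 to 1.34, limma adjusted p = 0.00405) and Col4a2 by 0.95 (0.34 to 1.56, limma adjusted p = 0.0387), but Col4a2 missed the threshold without WT library B or C or PKN2 KO library A or C (adjusted p 0.11 to 0.16). The counts of the 2 genes are not comparable with each other, since each depends on its own primers. The windows, from RefSeq (GRCm38.p6), run from 250 bases before to 50 bases after each start, for Col4a1 at chr8:11312777-11313076 on the minus strand and for Col4a2 at chr8:11312555-11312854 on the plus strand. Capitals mark the 78 bases that both windows contain, read on opposite strands.
Col4a1: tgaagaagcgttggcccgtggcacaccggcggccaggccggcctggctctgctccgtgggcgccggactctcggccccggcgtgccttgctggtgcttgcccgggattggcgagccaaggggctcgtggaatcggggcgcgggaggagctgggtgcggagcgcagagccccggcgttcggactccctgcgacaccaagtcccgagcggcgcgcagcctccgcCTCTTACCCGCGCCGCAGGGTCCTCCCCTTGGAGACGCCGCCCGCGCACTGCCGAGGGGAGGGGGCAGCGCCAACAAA
Col4a2: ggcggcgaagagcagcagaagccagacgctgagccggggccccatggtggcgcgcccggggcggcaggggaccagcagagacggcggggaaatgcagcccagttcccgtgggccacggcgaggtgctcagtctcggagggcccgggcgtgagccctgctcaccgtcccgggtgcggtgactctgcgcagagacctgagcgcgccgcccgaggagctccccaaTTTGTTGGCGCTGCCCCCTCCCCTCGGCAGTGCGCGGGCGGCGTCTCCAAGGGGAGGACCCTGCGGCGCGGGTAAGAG

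Collagens of other classes, which cover the surface of fibrils or form microfilaments, gave 1 call, Col6a3, among 11 tested, beside 14.0% of all genes tested. The median was 0.56, beside 0.21 over all genes tested. Collagen VI forms beaded filaments around cells from 3 chains. Col6a3, the α3 chain, had 6132, 3476 and 3942 in WT and 11036, 7520 and 11069 in PKN2 KO, with a log2 fold change of 1.15 (0.52 to 1.78, limma adjusted p = 0.0163). The WT libraries all lay below the lowest PKN2 KO library. Without WT library B or C or PKN2 KO library A or C its adjusted p was 0.056 to 0.083. Its partner chains were not called, with log2 fold changes of 0.49 (-0.28 to 1.26) for Col6a1, the most counted of the list, and 0.60 (-0.20 to 1.39) for Col6a2, intervals that overlap that of Col6a3. The difference between the chains was not tested.

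Small leucine-rich proteoglycans bind to collagen fibrils and regulate their thickness and the growth factors held on them. Of 5 tested, 3 were called, all higher, beside 11.0% higher over all genes tested. The median of 1.21 was the highest among the gene groups plotted by list. Fmod (fibromodulin, ENSMUSG00000041559, chromosome 1, 134037254 to 134048277) had 20.1, 9.46 and 10.8 in WT and 78.5, 28.3 and 57.2 in PKN2 KO. It had 42 reads in WT and 161 in PKN2 KO, a ratio of 3.99 (counting interval 2.82 to 5.74), and a log2 fold change of 1.90 (0.88 to 2.92, limma adjusted p = 0.0161). Library B was the lowest in both groups, and without WT library C, PKN2 KO library A or PKN2 KO library C the adjusted p was 0.066 to 0.083. Prelp (ENSMUSG00000041577, chromosome 1, 133910304 to 133921414), which anchors collagen to basement membranes, had 1279, 591 and 970.2 in WT and 3204, 2325 and 3379 in PKN2 KO. The log2 fold change was 1.70 (0.94 to 2.46, limma adjusted p = 0.00518), with the highest WT library well below the lowest PKN2 KO library. Aspn (asporin), a TGF-β-binding member of the family, had 162, 152 and 219.9 in WT and 359, 394 and 481 in PKN2 KO, a log2 fold change of 1.21 (0.79 to 1.64, limma adjusted p = 0.0013). Bgn (biglycan), the most counted of the list, was at 0.12 (-0.43 to 0.68). Dcn (decorin) was at 0.80 (-0.48 to 2.07) on a mean of 21.5 ± 13.8 in WT, which leaves both no change and a large one within the interval.

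Fmod and Prelp lie next to each other on chromosome 1 and are transcribed away from each other. Neighbouring genes of the panel, protocadherins left out, were examined at a distance of up to 200000 bases. Of 21 such pairs, 5 had at least 1 called gene and 2 had both called, Col4a1 with Col4a2, which overlap at their starts, and Fmod with Prelp, 115840 bases apart. In the other 3 only Adamts5, Aspn or Itga7 was called and the neighbour, Adamts1 (-0.41), Ecm2 (0.76) or Mmp19 (-0.15), was not. The start regions of Prelp (chr1:133921352-133921651, minus strand) and Fmod (chr1:134037004-134037303, plus strand) are given with the SMAD core motif CAGAC or its reverse complement GTCTG in capitals, which occurs 3 and 2 times.
Prelp: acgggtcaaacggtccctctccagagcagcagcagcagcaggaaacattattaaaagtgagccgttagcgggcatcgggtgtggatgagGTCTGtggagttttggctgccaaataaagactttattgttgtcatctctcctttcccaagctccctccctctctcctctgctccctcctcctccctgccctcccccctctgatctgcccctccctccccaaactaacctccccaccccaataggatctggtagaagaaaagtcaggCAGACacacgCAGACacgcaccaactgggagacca
Fmod: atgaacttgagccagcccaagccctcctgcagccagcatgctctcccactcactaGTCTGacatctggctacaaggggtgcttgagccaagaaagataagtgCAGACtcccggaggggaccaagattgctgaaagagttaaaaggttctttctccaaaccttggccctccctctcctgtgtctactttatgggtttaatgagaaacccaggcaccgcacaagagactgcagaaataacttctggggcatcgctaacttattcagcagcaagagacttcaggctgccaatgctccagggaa

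Motifs of transcription factors that respond to the actin cytoskeleton or to TGF-β were counted in these 300-base windows, for the 147 of 228 genes with a window in the table. The TEAD motif GGAATG or CATTCC, bound by the partners of YAP, was present in 1 of 16 genes called higher (6.25%), Sgcd, and in 0 of 5 called lower, beside 17 of 147 genes tested (11.6%) and 16.6% of all 27025 genes of the table. The SMAD core was present in 8 of 16 higher (50.0%) and 4 of 5 lower genes (80.0%), beside 50.3% of genes tested and 53.2% of all. The CArG box bound by SRF was in 0 of 147 tested and in 1.81% of all. Both strands were searched, and none of the motifs contains another. A match is a run of letters in the window and not a measured site.

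Among the other proteoglycans and link proteins, 1 of 4 tested was called, beside 14.0% of all genes tested. Gpc1 (glypican-1), a heparan sulphate proteoglycan anchored in the plasma membrane that presents growth factors, rose from 142 ± 7.55 to 279 ± 57.1, a log2 fold change of 0.95 (limma adjusted p = 0.00405). Cd44, the hyaluronan receptor and the most counted of the list, was at 0.04 (-0.39 to 0.46).

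Elastic fibre and microfibril genes gave 1 call among 7, a decrease, beside 14.0% of all genes tested that were called. Efemp1 (fibulin-3), a secreted glycoprotein of the elastic fibre, had 6322, 4155 and 5900 in WT and 3007, 2559 and 3678 in PKN2 KO, and fell by 0.82 on the log2 scale (-1.31 to -0.32, limma adjusted p = 0.0283). The gap between WT library B and PKN2 KO library C was small, and the adjusted p was 0.094 to 0.12 without WT library A or C or PKN2 KO library A or B. Its relative Efemp2 was at -0.11 (-0.51 to 0.29), and Fbln2, the most counted, at 0.08 (-0.67 to 0.82).

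Matricellular glycoproteins signal from the matrix to cells rather than bear load. Of 19 tested in the list of matricellular and adhesive glycoproteins, 1 was higher and 1 lower, beside 11.0% and 3.07% of all genes tested. The median was 0.32, and both called genes encode proteins of the cell membrane. Megf10, an engulfment receptor with EGF-like domains, rose from 1016 ± 109 to 2351 ± 221, a log2 fold change of 1.21 (limma adjusted p = 0.00192). Thsd7a, a membrane protein with thrombospondin repeats, had 266, 224 and 195 in WT and 136, 135 and 117 in PKN2 KO. It fell by 0.81 on the log2 scale (-1.26 to -0.36, limma adjusted p = 0.0174), and its adjusted p was 0.062 to 0.080 without WT library A or PKN2 KO library A or C. Sparc, a collagen-binding glycoprotein and the most counted of the list, was at 0.07 (-0.50 to 0.64). Fn1 (fibronectin), chosen here after its values were seen, had 38099, 15884 and 22429 in WT and 46203, 31630 and 49529 in PKN2 KO. WT library A lay above PKN2 KO library B, and the log2 fold change of 0.80 (0.03 to 1.58) was not called (limma adjusted p = 0.17).

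**Figure D3:**
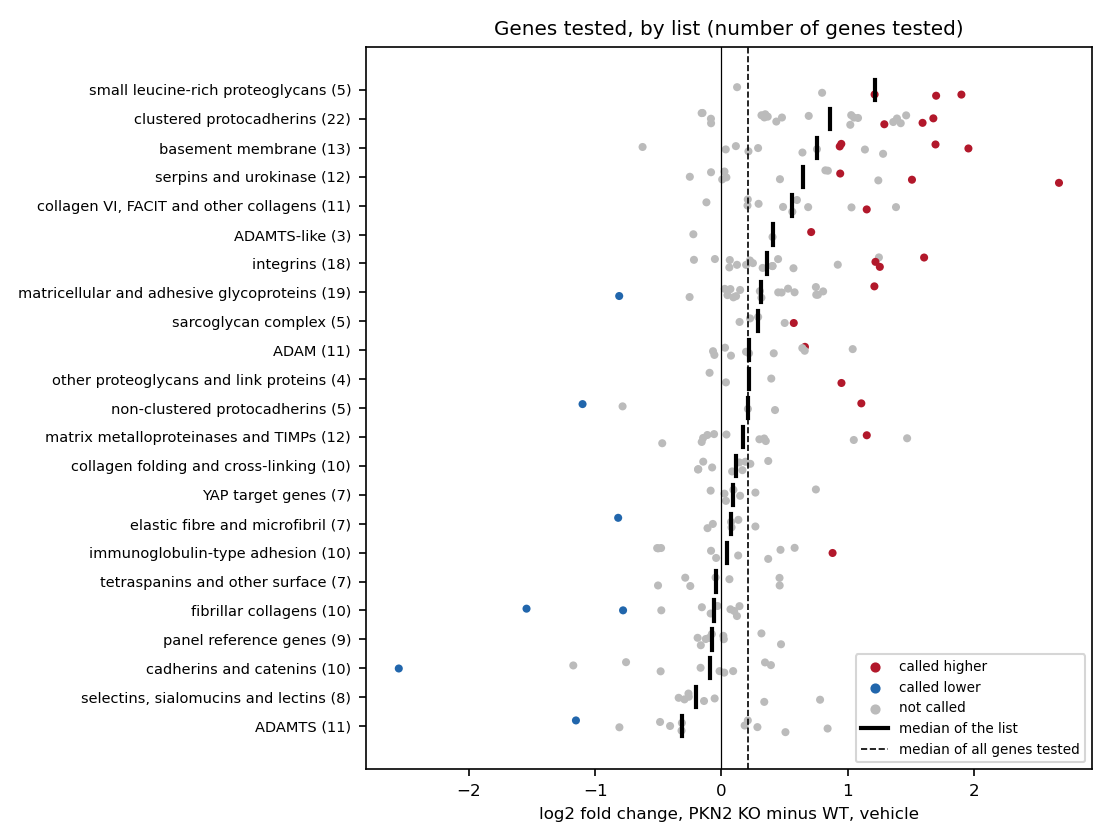
Log2 fold changes (x axis) of the genes tested in each of 23 gene groups (y axis, number tested in brackets), with called genes in red or blue, the group median as a black bar and the median of all genes tested, 0.21, as the dashed line. Small leucine-rich proteoglycans (median 1.21), clustered protocadherins (0.86) and basement membrane genes (0.76) lie to the right, ADAMTS proteases (-0.31) to the left.

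Proteases cut the matrix. Among 12 matrix metalloproteinases and their inhibitors, 1 was called, beside 14.0% of all genes tested. Mmp28 (epilysin), a secreted metalloproteinase, had 109, 70.3 and 91.7 in WT and 200.4, 157 and 248 in PKN2 KO, a log2 fold change of 1.15 (0.53 to 1.78, limma adjusted p = 0.0162). The call was lost without WT library B or C or PKN2 KO library A or C (adjusted p 0.056 to 0.088). Timp2, an inhibitor of these enzymes and the most counted of the list, was at -0.06 (-0.62 to 0.50). Of 11 ADAM genes, membrane-bound sheddases, only Adam12 was called, again beside 14.0% of all genes tested. Adam12 rose from 271 ± 22.6 to 430.2 ± 48.3 (log2 fold change 0.66, limma adjusted p = 0.0309). This call held in only 1 of the 6 fits that leave out a library (adjusted p 0.051 to 0.13 in the other 5, those without WT library A or C or any PKN2 KO library). Adam9, the most counted, was at 0.08 (-0.51 to 0.66).

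The ADAMTS proteases, secreted enzymes of which several cleave aggrecan and versican, had fewer genes above 0 than below. Of 11 tested, 5 were positive, 1 was lower and none higher, beside 69.7% positive, 3.07% lower and 11.0% higher over all genes tested. The WT and PKN2 KO libraries were apart for 5, all of them lower, beside 8.77% of all genes tested that were apart and lower. The median was -0.31. Adamts5, an aggrecanase (ENSMUSG00000022894, chromosome 16, 85856173 to 85901828) and the most counted of the list, had 2820, 2272 and 3041 in WT and 1162, 993 and 1538 in PKN2 KO. The log2 fold change was -1.15 (-1.72 to -0.59, limma adjusted p = 0.00907, or 0.056 without WT library C). Adamts1, Adamts4, Adamts9 and Adamts14 were also apart but not called, at -0.41, -0.32, -0.81 and -0.31. Of 3 ADAMTS-like genes, which lack the protease domain, Adamtsl3 rose from 221 ± 48.6 to 357 ± 18.8 (log2 fold change 0.71, limma adjusted p = 0.0184; 0.052 to 0.083 without WT library B or C or PKN2 KO library A or C), and Adamtsl5, the most counted, was at 0.40 (-0.19 to 0.99).

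Serpins trap serine proteases by a suicide mechanism, and with urokinase they formed a list of 12 tested genes with 3 calls, all higher, beside 11.0% higher over all genes tested, and a median of 0.64. Serpine2 (protease nexin-1, ENSMUSG00000026249, chromosome 1, 79794197 to 79861180), an inhibitor of thrombin, urokinase and plasmin, had 38.9, 14.9 and 12.8 in WT and 209, 82.7 and 128 in PKN2 KO. Its log2 fold change of 2.67 (1.50 to 3.84, limma adjusted p = 0.00466) was the largest increase among the genes tested. It rests on 68 reads in WT and 416 in PKN2 KO, a ratio of 6.36 with a counting interval of 4.92 to 8.35. Library A was the highest of both groups, and the lowest PKN2 KO library was more than double the highest WT library.

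Serping1, the C1 inhibitor of the complement and contact systems, rose from 166 ± 63.6 to 450.2 ± 63.7 (log2 fold change 1.51, limma adjusted p = 0.00474). Serpinb8, an intracellular inhibitor of furin-like proteases, rose from 420.4 ± 27.1 to 807 ± 21.0 (0.94, limma adjusted p = 0.00102), with the smallest spread of the 3. Serpinb6a, the most counted of the list, was at 0.01 (-0.44 to 0.45). The urokinase gene Plau, chosen after its values were seen, was at -0.25 (-0.73 to 0.23).

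Integrins are the αβ receptors by which cells grip laminin, collagen and fibronectin. Of 18 genes tested in this list, 3 were higher, none was lower, 16 were positive, and the median was 0.36. The share called is close to that over all genes tested, of which 11.0% were higher and 69.7% positive. Itga7, the α chain of a laminin receptor of muscle and perivascular cells (ENSMUSG00000025348, chromosome 10, 128933818 to 128958282), had 64.9, 50.7 and 55.2 in WT and 223, 143 and 166 in PKN2 KO. The log2 fold change was 1.60 (1.07 to 2.14, limma adjusted p = 0.00102), and every PKN2 KO library was above double the highest WT library. Itgb3, the β3 chain of vitronectin receptors, rose from 42.8 ± 24.2 to 95.9 ± 22.5 (1.25, limma adjusted p = 0.0387), but WT library A at 70.8 was close to PKN2 KO library B at 82.7, edgeR on the reads did not call it (adjusted p = 0.063), and of the 6 fits that leave out a library only that without WT library A called it (adjusted p 0.067 to 0.16 in the others). Itgbl1, a secreted protein that resembles the stalk of an integrin β chain, had 72.0, 70.3 and 75.9 in WT and 204, 120.1 and 202 in PKN2 KO, a log2 fold change of 1.22 (0.53 to 1.91, limma adjusted p = 0.0184). Its WT libraries were almost equal while its PKN2 KO libraries ranged widely, and its adjusted p was 0.065 to 0.095 without WT library C or PKN2 KO library A or C. Itgb1, the β chain shared by most of these receptors and the most counted, was at 0.06 (-0.59 to 0.72).

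Cadherins join cells to each other through calcium-dependent contacts. Among 10 cadherins and catenins tested, 1 was lower and none higher, beside 3.07% lower and 11.0% higher over all genes tested. Cdh18 (ENSMUSG00000040420, chromosome 15, 22549022 to 23474418), a classical cadherin known mainly from neurons, had 18.9, 23.6 and 24.6 in WT and 1.17, 3.53 and 5.30 in PKN2 KO. Its log2 fold change was -2.55 (-3.64 to -1.47, limma adjusted p = 0.00405), the largest decrease among the genes tested. Reads went from 76 in WT to 11 in PKN2 KO, a ratio of 0.15 with a counting interval of 0.072 to 0.28. Only the WT libraries reached 10, so Cdh18 passed the filter through the group where it is high, and nothing is read from its rank. A filter of 10 or more in every vehicle library leaves it out. The values of all PKN2 KO libraries are a few reads each. Ctnnb1 (β-catenin), the most counted of the list, was at 0.02 (-0.42 to 0.46).

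The non-clustered protocadherins, single-gene relatives of cadherins, gave 1 higher and 1 lower gene among 5, beside 11.0% and 3.07% of all genes tested. Pcdh18 had 378, 548 and 472 in WT and 197, 247 and 202 in PKN2 KO, and fell by 1.10 on the log2 scale (-1.49 to -0.71, limma adjusted p = 0.0013). Pcdh7 rose from 233 ± 30.0 to 500.1 ± 8.50 (1.11, limma adjusted p = 6.67e-04). Neither pair of groups came near to overlap, and Pcdh1, the most counted, was at 0.21 (-0.14 to 0.55).

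The clustered γ protocadherins form a family in which each transcript joins 1 variable exon, the source of its name, to 3 exons that all share. The deposited counts do not say how reads from the shared exons were assigned, so single members are uncertain. All 22 clustered protocadherins tested were γ genes, with a median of 0.86. Of these, 3 were called, all higher, a share close to the 11.0% higher over all genes tested. Pcdhga11 had 30.7, 111 and 48.3 in WT and 145, 234 and 165 in PKN2 KO, a log2 fold change of 1.68 (0.63 to 2.73, limma adjusted p = 0.0337). Pcdhgb5 had 69.6, 241 and 147 in WT and 339.9, 565 and 357 in PKN2 KO, a log2 fold change of 1.59 (0.54 to 2.65, limma adjusted p = 0.043). In both genes library B was the highest of its group, and both calls were lost with edgeR on the reads (adjusted p = 0.059 for each) and in 5 of the 6 fits that leave out a library, all but that without WT library B (adjusted p 0.072 to 0.17). Pcdhga9 rose from 122 ± 38.1 to 293 ± 61.5 (1.29, limma adjusted p = 0.00785).

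The sum of the family, in which each gene also counts by its own primers, was not called. Over all 22 genes the summed normalised count was 35290.5, 24816 and 29714 in WT and 31112, 24112 and 33872 in PKN2 KO, a log2 fold change of -0.01 with a standard error of 0.24 (limma adjusted p = 0.97). Between 77.8 and 94.8% of this sum lay in 4 genes, Pcdhga10, Pcdhgc3, Pcdhgc4 and Pcdhgc5, with log2 fold changes of -0.16 to -0.08. The other 18, a split made after the values were seen, were all positive at 0.32 to 1.68, and for 13 of them the libraries of the 2 groups were apart, beside 24.6% of all genes tested that were apart and higher. Since the 4 genes set aside are the negative ones, nothing is read from these counts. The sum of the other 18 was 1852, 3085 and 2302 in WT and 3932, 5344 and 3750 in PKN2 KO. For the same reason nothing is read from it.

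Of 10 immunoglobulin-type adhesion molecules tested, 1 was called. The share over all genes tested, for this list and those that follow, was 14.0%. L1cam, a neural and tumour adhesion molecule, rose from 819 ± 162 to 1511 ± 303 (0.88, limma adjusted p = 0.00942; 0.050 to 0.069 without WT library C or PKN2 KO library A or C), and it is also the glial or neural marker mentioned above. Nptn (neuroplastin), the most counted, was at -0.08 (-0.55 to 0.39). In the sarcoglycan complex, which ties the cytoskeleton to laminin through dystroglycan, Sgcd rose from 494 ± 72.3 to 734 ± 103 (0.57, limma adjusted p = 0.043), 1 of 5 tested, and Sgce was at 0.14 (-0.25 to 0.53). The call of Sgcd was lost without WT library A or C or PKN2 KO library A or C (adjusted p 0.051 to 0.21). None of 8 selectins, sialomucins and lectins and none of 7 tetraspanins and other surface genes was called by limma. The most counted genes of these lists were Lgals1 (galectin-1) at -0.34 (-0.79 to 0.12) and Cd9 at -0.25 (-0.71 to 0.22).

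YAP is a transcriptional coactivator that responds to tension in the actin cytoskeleton, and its target genes are a usual readout of that tension. None of the targets tested was called in vehicle with limma, beside 14.0% of all genes tested. The list is short, and nothing about YAP activity is read from this count. Log2 fold changes were 0.09 for Ccn2, the most counted, 0.15 for Thbs1, 0.04 for Cd44, 0.27 for Fbn1, 0.75 for Tgfbi and -0.09 for Col5a2. For each of these apart from Tgfbi the interval lay within 1, so a doubling or halving in vehicle was outside it. Tgfbi, at 0.75 (standard error 0.27, limma adjusted p = 0.082), had 549, 268 and 448 in WT and 808, 538 and 719.6 in PKN2 KO, where WT library A just exceeds PKN2 KO library B.

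The 9 reference genes set the library factors, so their middle value and lack of calls are largely fixed by the scaling. None was called, and the median log2 fold change was -0.08. The values were 0.47 for Map3k2, 0.32 for 2700049A03Rik, 0.02 for Fbrsl1 and for Ppil2, -0.08 for Thap3, -0.10 for Rfx1, -0.12 for Zfp446, -0.16 for Zbtb22 and -0.19 for Ppie, the most counted. The libraries of the 2 groups were apart for 2 of these genes, both higher in PKN2 KO, beside 24.6% of all genes tested that were apart and higher. Col6a3, Mmp28, Aspn, Itgbl1, Fmod and Serpine2 are the 6 genes that the study ties to metastasis, and all were called higher, with a median of 1.22. The study picked them on these samples, so their direction is not independent evidence. Of all 196 genes not called, the interval lay within 1 on the log2 scale for 124 and within 0.5 for 20, and for the other 72 the libraries could not show whether a doubling or halving took place.

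Most of the differences seen in vehicle had the same sign in the cells given TGF-β1. Of the 25 genes higher in vehicle, 23 had a positive log2 fold change after TGF-β1 and 12 were called higher there, and of the 7 lower genes all 7 were negative and 6 were called lower. Over all 228 genes, 59.2% were positive and 40.8% negative after TGF-β1, and 33 (14.5%) were called, 19 higher and 14 lower. The comparisons use different libraries and share the fit's estimate of the spread. The difference between the 2 effects was tested for all genes, and 7 of 228 (3.07%) passed, 3 of them among the 32. Prelp went from 1.70 in vehicle to 4.63 after TGF-β1, Serpinb8 from 0.94 to 1.95, and Adamtsl3 from 0.71 to -0.45. Itga7 (1.60 and 0.38, interaction adjusted p = 0.094 from limma) and Pcdh7 (1.11 and 0.28, limma adjusted p = 0.060) came next. For the other 27 called genes the interaction had an adjusted p above these, which does not show that the effects were equal.

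**Figure D4:**
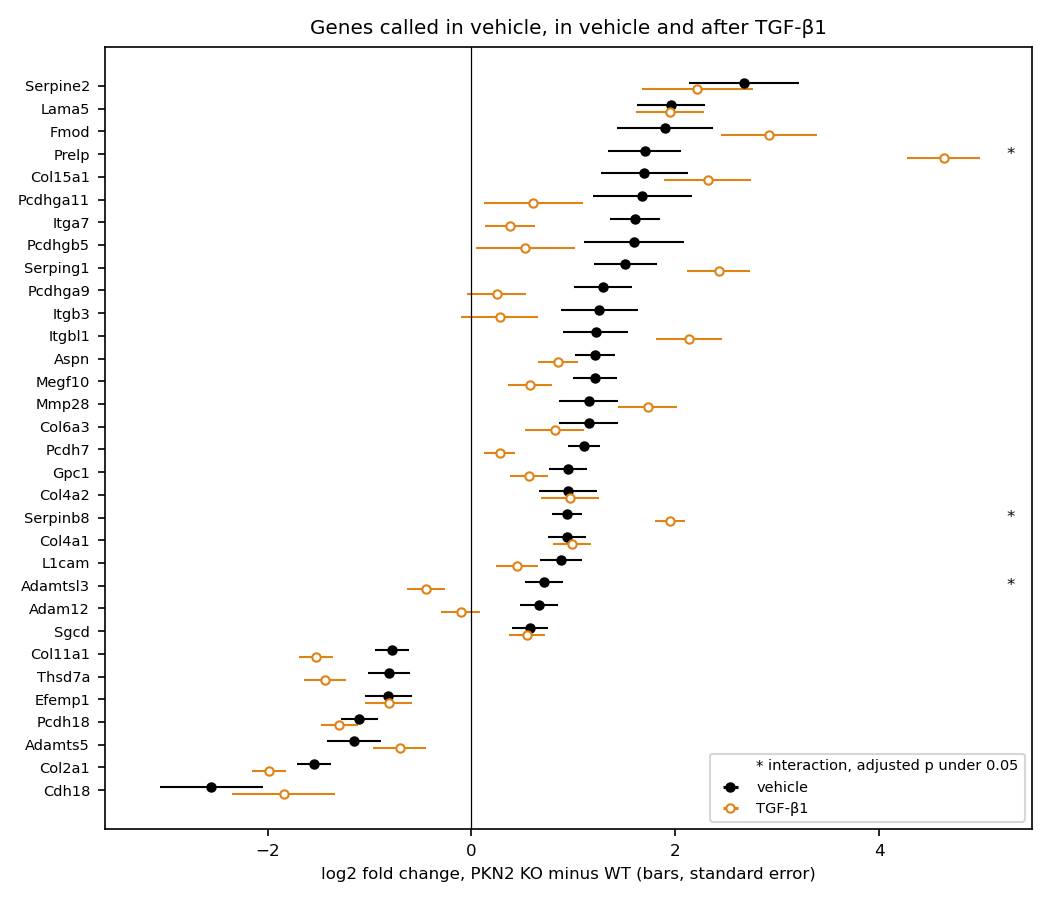
Log2 fold change, PKN2 KO minus WT (x axis), of the 32 genes called in vehicle (y axis), in vehicle (filled circles) and after TGF-β1 (open circles), with the standard error of each as a bar. Asterisks mark the 3 genes whose effects differed by the limma interaction test, Prelp (1.70 and 4.63), Serpinb8 (0.94 and 1.95) and Adamtsl3 (0.71 and -0.45).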

How the data were processed

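RNA was measured with the QIAseq targeted panel for mouse matrix and adhesion genes, sequenced as a 12-plex pool on the Illumina MiSeq. Counts per gene were made by the authors with the QIAGEN pipeline; the submitters' processing notes name STAR, DESeq2 1.32 and mm10. The authors deposited raw counts and normalised counts for 420 genes. The deposited normalised counts are a signal per gene, the reads of a library divided by 1 factor, and these factors equalled the median of ratios over 9 genes that close the list, out of alphabetical order. In the raw counts, 6 columns carry repeated names and were not used; the other 6 were equal to the reads recovered from the normalised counts for all 420 genes, after rounding of values that lay within 0.01 read of a whole number. Whether reads of the same molecule were merged is not given in the sources used here, and counting intervals cover counting error only.

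Genes with a normalised count of at least 10 in at least 3 vehicle libraries were tested with limma 3.58.1 (trend, robust; R 4.3.3) on log2(normalised count + 1), a scale that understates changes of low genes, with 1 mean for each of the 4 groups of 3 libraries and Benjamini-Hochberg adjustment at 0.05. Levels of different genes were not tested against each other. Naming the most counted gene of a list, and the shares of the protocadherin sum, depend on the primers of each gene. Intervals are 95% intervals from this fit. edgeR 4.0.16 and DESeq2 1.42.0 on the recovered reads, other scalings, filters and variance settings, libraries left out in turn and a replicate block were alternatives. Coordinates come from GENCODE (GRCm38) and promoters from RefSeq.

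Every called gene is named; the 8 with the largest change in each direction and called genes that the study ties to metastasis are given per library; the most counted member of each list of 3 or more tested genes, YAP targets and reference genes are named in any case. A gene that this rule would name is not reported here. Per-library values of Col4a1, Col4a2, Fn1 and Tgfbi, the named neighbours, and the ADAMTS, collagen VI, Efemp2, Dcn and Plau values were added after values were seen. The gene set and lists were chosen with earlier results of these data known. 3 genes were moved between or out of the lists once the files were read.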

Additional observations from a re-analysis of the deposited data

Results flagged for a closer look

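Among the 32 genes called in vehicle, the effect of PKN2 loss differed between TGF-β1 and vehicle for 3 by the interaction term of the limma fit over all 12 libraries, adjusted over 228 genes. The difference, TGF-β1 minus vehicle on the log2 scale, was 2.93 (standard error 0.50, adjusted p = 0.011) for Prelp, whose effect was positive in both. It was 1.01 (0.21, limma adjusted p = 0.031) for Serpinb8, also positive in both. For Adamtsl3 it was -1.16 (0.26, limma adjusted p = 0.031), where the effect was positive in vehicle and negative, though not called, after TGF-β1. With any 1 vehicle library left out, between 0 and 3 of the called genes passed this test. Prelp and Serpinb8 were called in vehicle in all of those fits, Adamtsl3 in 2 of the 6.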

How the results depend on the processing

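No gene called in vehicle changed sign under any alternative run, but many of these runs could not have changed it. The libraries of the 2 groups were apart for all 32 genes, so leaving out 1 without the block keeps the sign. Variance settings and unadjusted p-values keep the fold change itself. Of 666 gene values from alternatives without a block, 576 stayed past the threshold and 90 did not, 60 of them from leaving out 1 library. Those with unadjusted p-values, which are never above the adjusted ones, could only stay past it. The cause of each change in counts given here was not tested. DESeq2 with the authors' factors called all 32 genes, and edgeR called 29 of them. DESeq2 with its own factors called 55 genes, 32 of them lower. Lower calls were 14 under TMM and 21 under median-of-ratios scaling. Unadjusted p-values gave 59 calls, 47 higher and 12 lower. With 1 library left out there were 17 to 35 calls, 12 to 28 higher and 5 to 7 lower, and 0 to 3 called genes had an interaction past the threshold, where the main fit has 3; that number was 1 without a trend of the variance, 5 and 6 with DESeq2 under the authors' and its own factors, and 10 unadjusted. edgeR and DESeq2 gave no intervals, and fits of 6 libraries no interaction.

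The letters A, B and C were taken as names and not as a pairing. The deviations of same-lettered vehicle libraries from their group means correlated at 0.49 for A, 0.72 for B and 0.08 for C across genes, and 5 of the 6 libraries correlated best with their own letter, a hint from the data. With the letter as a replicate block there were 86 calls, 71 higher and 15 lower, with 28 interactions; without the trend 72, 58, 14 and 10. With the block limma estimated infinite prior degrees of freedom for 195 genes, and without the trend a median of 2.58; their part in the counts was not tested. On the 6 vehicle libraries the block gave 84 calls (69 and 15), and without the trend, added after seeing the data, 65 (52 and 13). The block with TMM gave 87 (49 higher, 38 lower, 26 interactions), with the median of ratios 100 (47, 53 and 23), with the total count 83 (60, 23 and 16), and in edgeR, added after seeing the data, 96 (78, 18 and 30). With the block and 1 library left out there were 66 to 90 calls, 55 to 76 higher and 10 to 14 lower, and 15 to 35 interactions. The block lost no call among the 32 genes except that of Itgb3 on the 6 libraries without the trend.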
